A study of Mus musculus with 6 samples.

Results

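The antigen-presentation genes described here were 10 members of the MHC class I pathway, chosen by symbol from the 52550 genes of the deposited count table. They were H2-K1, H2-D1, B2m, Tap1, Tap2, Tapbp, Psmb8, Psmb9, Psmb10 and Nlrc5. All 10 were found, and all 10 passed the filter on low counts, as did 16402 genes in all. RNA-seq had been carried out on 6 libraries of bone marrow-derived macrophages, 3 from MSR1 KO mice and 3 from MSR1 WT mice, both of the C57BL/6 strain. MSR1 is a scavenger receptor of macrophages, and the study asked what its loss changed in macrophages that share medium with bone marrow stem cells (BMSCs). Marrow cells of both genotypes had been grown for 7 days with 25 ng/ml M-CSF, the growth factor that drives macrophage differentiation, and then kept for 48 h in a transwell with BMSCs. The knockout was not confined to macrophages of the mice, and the allele, the age and the sex of the mice were not given in the sources used here. The study calls the 3 libraries of a genotype biological replicates, without saying whether they came from separate mice or separate cultures, so the p-values below measure the spread between these libraries.

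MHC class I molecules show short peptides from inside the cell to CD8 T cells. A heavy chain (H2-K1 and H2-D1 are the classical heavy chains of this strain) pairs with the light chain β2-microglobulin, encoded by B2m. The peptides are cut by the proteasome, carried into the endoplasmic reticulum by the TAP1-TAP2 transporter and fitted into the groove with the help of tapasin, encoded by Tapbp. In the immunoproteasome, the inducible subunits β5i (Psmb8), β1i (Psmb9) and β2i (Psmb10) take the places of the constitutive catalytic subunits β5 (Psmb5), β1 (Psmb6) and β2 (Psmb7). NLRC5 has no DNA-binding domain of its own and switches on class I genes by joining the RFX, CREB/ATF and NF-Y proteins at their promoters. Interferons are the best known inducers of the whole pathway in macrophages.

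Total counts per library were between 36143518 and 47417448. Msr1 itself had 2118, 1825 and 2000 counts in MSR1 KO macrophages and 7543, 9163 and 9219 counts in MSR1 WT macrophages, so reads on the targeted gene were reduced and not absent. The summed level of 7 macrophage markers was 22254 to 23389 CPM (counts scaled to a fixed, TMM-normalised library total) in MSR1 KO macrophages and 22567 to 25165 CPM in MSR1 WT macrophages. Lyz2 made up most of this sum, with means of 13400 CPM in MSR1 KO and 14910 CPM in MSR1 WT macrophages. Of the 7 markers, 4 had a log2 fold change above 0. Fcgr1, a receptor for IgG, rose (log2 fold change 1.14, quasi-likelihood test of edgeR, adjusted p = 0.018). Itgam was lower at an unadjusted p of 0.045 in the same edgeR test and was not called (log2 fold change -0.32, adjusted p = 0.25). The 6 markers of T and NK cells summed to 15.1 to 18.3 CPM in MSR1 KO macrophages and 4.41 to 12.0 CPM in MSR1 WT macrophages, and Klrb1c, an NK cell receptor, rose among them (log2 fold change 1.39, same edgeR test, adjusted p = 0.028). Cd3e, which defines T cells, had 0, 0 and 9 counts against 0, 4 and 8 counts. Markers of dendritic cells summed to 2.82 to 3.89 CPM in MSR1 KO and 1.64 to 3.41 CPM in MSR1 WT macrophages. Of these 5, edgeR called none, DESeq2 called 1 higher, and 2 had a log2 fold change above 0. Xcr1 had the largest (2.04, edgeR, adjusted p = 0.060), with 16, 36 and 40 counts against 7, 8 and 8. Markers of B cells summed to at most 0.477 CPM in any library. The 5 neutrophil markers summed to 248 to 384 CPM against 168 to 274 CPM, with none called. The 6 stromal markers summed to 999 to 1356 CPM against 1305 to 1629 CPM. Among them Pdgfra, a growth factor receptor of stromal cells, fell from 16.2 ± 2.31 CPM in MSR1 WT to 7.13 ± 1.11 CPM in MSR1 KO macrophages (SD, n = 3, log2 fold change -1.19, edgeR, adjusted p = 0.014), and 3 of the 6 were called lower by DESeq2. The part of these other cells in the differences below was not tested. In bulk RNA, more cells of one type and more RNA per cell cannot be told apart.

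Of the 10 genes, 8 rose in MSR1 KO macrophages at an adjusted p under 0.05 by edgeR's quasi-likelihood test, where 2.25% of all tested genes were called higher. The heavy chain H2-K1, both TAP subunits, tapasin, the 3 immunoproteasome subunits and Nlrc5 made up the 8, with fold changes between 1.53 and 2.56. H2-D1 and B2m missed the threshold. None was called lower, where 2.66% of all tested genes were. The same 8 genes met the study's own definition of a differentially expressed gene, a fold change above 1.5 with an unadjusted p under 0.05, which 3.59% of tested genes met in the higher and 5.05% in the lower direction. For all 10 genes, every MSR1 KO library lay above every MSR1 WT library, which held for 12.1% of tested genes. The median log2 fold change was 0.78 over the 10 genes and -0.0023 over all tested genes. The number called depended on single libraries. When an MSR1 WT library was left out it was 0 (replicate 1), 0 (replicate 2) or 5 (replicate 3), while the number of all genes called higher went from 369 to 18, 62 and 407. When an MSR1 KO library was left out it was 1, 4 and 6, with 42, 97 and 183 of all genes called higher, so calls were lost over all genes too. In each case all 10 log2 fold changes were above 0 and all 10 unadjusted p-values under 0.05. The share of all tested genes under this unadjusted p was not counted, so such counts have no background beside them.

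**Figure D1:**
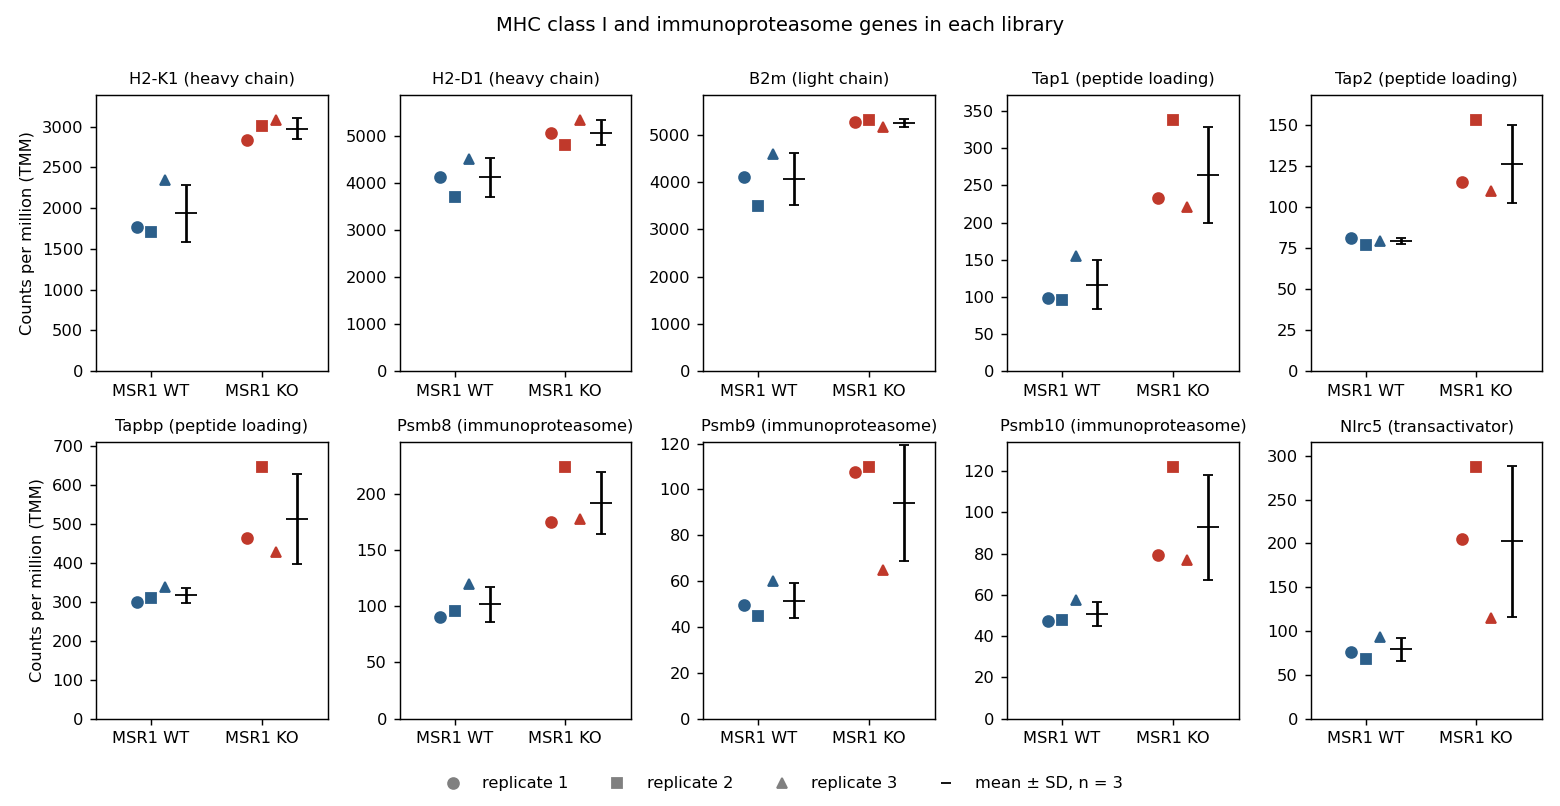
Level of each of the 10 genes in every library, in TMM-normalised CPM (linear axes from 0, a separate scale for each gene), for the 3 MSR1 WT and the 3 MSR1 KO libraries; black marks give the mean and the SD (n = 3). The MSR1 KO points lie above the MSR1 WT points in every panel, by the narrowest margin for H2-D1 (lowest MSR1 KO over highest MSR1 WT library, 1.065) and the widest for Psmb8 (1.465).

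The heavy and light chains were the most abundant of the 10 transcripts. Per kilobase of merged exons, the MSR1 WT level was 4723 ± 650 CPM (SD, n = 3) for B2m, 1598 ± 158 CPM for H2-D1 and 660 ± 119 CPM for H2-K1. Next came Tapbp at 87.2 ± 5.30 CPM per kilobase. Psmb8 (30.1 ± 4.64 CPM per kilobase), Psmb10 (29.8 ± 3.46), Tap1 (21.2 ± 6.05) and Tap2 (21.0 ± 0.498) followed, and neighbours in this run of genes did not differ beyond their spread. Psmb9 (14.1 ± 2.11 CPM per kilobase) and Nlrc5 (9.31 ± 1.52) were the lowest. The 10 genes together took 1.44%, 1.49% and 1.45% of all counts in MSR1 KO macrophages and 1.08%, 0.981% and 1.25% in MSR1 WT macrophages.

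H2-K1 (ENSMUSG00000061232.15, chromosome 17 from 33996017 to 34000347 on GRCm38, minus strand) had 2832, 3003 and 3086 CPM in MSR1 KO macrophages and 1767, 1708 and 2342 CPM in MSR1 WT macrophages. The means were 2974 ± 130 CPM and 1939 ± 351 CPM (SD, n = 3), a log2 fold change of 0.62 (standard error, SE, 0.118, quasi-likelihood test of edgeR, adjusted p = 0.029). The 3 MSR1 KO libraries were close together, and MSR1 WT replicate 3 was the nearest of the controls. H2-D1 (ENSMUSG00000073411.11, chromosome 17 from 35262730 to 35267499) had 5060, 4815 and 5350 CPM against 4137, 3708 and 4522 CPM, a log2 fold change of 0.30 (SE 0.0836) that missed the threshold of the same edgeR model (adjusted p = 0.088). B2m (ENSMUSG00000060802.8, chromosome 2 from 122147686 to 122153083) had 5259, 5316 and 5154 CPM against 4105, 3482 and 4598 CPM, with a log2 fold change of 0.37 (SE 0.0967, adjusted p = 0.074 in the edgeR model). The MSR1 KO libraries lay above the MSR1 WT libraries for both genes, and B2m was the steadiest of the 10 within the MSR1 KO group, where its highest level was 1.03 times its lowest. The counts of H2-K1 over those of H2-D1 in a library gave a log2 ratio of -0.84, -0.68 and -0.79 in MSR1 KO macrophages and -1.23, -1.12 and -0.95 in MSR1 WT macrophages. The balance of the heavy chains thus leaned further to H2-K1 in every MSR1 KO library, by 0.33 on the log2 scale. This ratio was 1 of 4 chosen after the values had been seen, and its exact two-sided permutation p of 0.1 (0.1 adjusted over the 4) is the smallest that 3 against 3 libraries allow. The log2 ratio of H2-K1 to B2m, also 1 of the 4, differed by 0.25 with the same exact permutation p of 0.1. The heavy chain genes are near copies of each other, so reads could have been split between H2-K1, H2-D1 and the H2-Q and H2-T genes, and these values are uncertain to that extent.

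The promoters of these 3 chains are shown because they carry, in these letters, the elements that class I transcription is known to use. The sequences are from RefSeq on GRCm38.p6, whose windows run from 250 bases before to 50 bases after a gene's start, and 8 of the 10 genes had a window (Tap2 and Nlrc5 had none). The stretch of H2-K1 is chr17:34000349-34000447 on the minus strand and that of B2m is chr2:122147540-122147648 on the plus strand. H2-D1 is given by 30 bases at chr17:35262933-35262962 and 30 bases at chr17:35262993-35263022, both on the plus strand. Both lie before the RefSeq start but over an exon annotated by GENCODE, which the H2-K1 and B2m stretches do not. Each runs 5′ to 3′, and capitals mark, from left to right, the interferon regulatory factor core (AANNGAAA on either strand), the CRE core (TGACG) and the reversed CCAAT box (ATTGG).
H2-K1: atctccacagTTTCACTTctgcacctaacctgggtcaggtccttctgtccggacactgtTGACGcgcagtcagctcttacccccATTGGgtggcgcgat
B2m: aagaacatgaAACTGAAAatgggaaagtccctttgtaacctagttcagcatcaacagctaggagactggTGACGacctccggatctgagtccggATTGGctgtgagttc
H2-D1 upstream: catctcctcagTTTCACTTctgcacctaac
H2-D1 downstream: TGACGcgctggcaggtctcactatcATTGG

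In all 3 promoters, TGACG and ATTGG stood on the same strand with 20 bases between them. This spacing was read from these promoters, and over all windows it occurred in 31 of 32851 (0.0944%), where TGACG alone was found in 20.8% and CCAAT alone in 37.4% on either strand. None of the other 5 genes with a window had it, although the windows of Tap1 and Psmb9 also held both boxes. Of the 30 bases from TGACG to ATTGG, H2-K1 and H2-D1 shared 23, H2-K1 and B2m 13 and H2-D1 and B2m 12, so the light chain shared with the heavy chains little beyond the boxes. The distance from the interferon regulatory factor core to TGACG was 41 bases in both heavy chains and 51 bases in B2m. The core was found in H2-K1, H2-D1 and B2m alone among the 8 genes with a window, and in 23.9% of all windows. The longer interferon-stimulated response element (2 GAAA repeats with 2 bases between them on either strand, which overlaps the core in B2m) was found in B2m alone among the 8, and in 3.44% of all windows. Tap2 and Nlrc5 were not searched. A match of letters is a description of the window, not a measured binding site.

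The transporter chains and tapasin rose. Tap1 (ENSMUSG00000037321.17, chromosome 17 from 34187553 to 34197225), which encodes the first chain of the peptide transporter, had 233, 338.5 and 221 CPM in MSR1 KO macrophages and 98.4, 96.0 and 154.5 CPM in MSR1 WT macrophages. That was a 2.27-fold difference (SE of the log2 value 0.221, quasi-likelihood test of edgeR, adjusted p = 0.027). MSR1 KO replicate 2 was the highest and MSR1 WT replicate 3 the nearest control, a pattern that recurred below. Tap2 (ENSMUSG00000024339.12, chromosome 17 from 34203527 to 34216321), the second chain, had 115, 153.5 and 110 CPM against 81.0, 77.3 and 79.5 CPM, a 1.59-fold difference (adjusted p = 0.027 in the edgeR model). Tapbp (ENSMUSG00000024308.14, chromosome 17 from 33915899 to 33929292), the bridge between TAP and the heavy chain, had 465, 646 and 428.5 CPM against 300.4, 311 and 338 CPM, a 1.62-fold difference (adjusted p = 0.036 in the edgeR model). Among Tap1, Tap2 and Tapbp, the MSR1 WT values of Tap2 were the tightest, with an SD of 1.88 CPM. No library overlapped between the groups for any of the 3. The chains of the transporter, which work as a pair, did not keep 1 ratio. The log2 ratio of Tap1 to Tap2 counts was 1.02, 1.14 and 1.01 in MSR1 KO macrophages and 0.28, 0.31 and 0.96 in MSR1 WT macrophages, with MSR1 WT replicate 3 next to the MSR1 KO values (exact two-sided permutation p = 0.1, chosen after the values had been seen).

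Of 5 other genes of peptide loading, 1 was called higher. Tapbpl, a relative of tapasin that edits bound peptides, had 46.4, 86.2 and 39.1 CPM in MSR1 KO macrophages and 23.3, 23.4 and 25.4 CPM in MSR1 WT macrophages, a log2 fold change of 1.25 (quasi-likelihood test of edgeR, adjusted p = 0.038). The more general folding factors gave other values. The log2 fold change of Calr, encoding calreticulin, was -0.21 (adjusted p = 0.14 in the edgeR model), that of Canx, encoding calnexin, was -0.08, and that of Pdia3, encoding ERp57, was 0.01. Erap1, which trims peptides in the endoplasmic reticulum, had a log2 fold change of 0.43 that did not pass (adjusted p = 0.16 in the edgeR model).

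All 3 inducible proteasome subunits rose, and none of the 3 constitutive subunits they replace was called. Psmb8 (ENSMUSG00000024338.14, chromosome 17 from 34197721 to 34201454) had 175, 224 and 177 CPM in MSR1 KO macrophages and 90.2, 95.4 and 119.6 CPM in MSR1 WT macrophages. Its log2 fold change was 0.92 (SE 0.135, quasi-likelihood test of edgeR, adjusted p = 0.016), the smallest adjusted p of the 10 genes. It was also the only one called without MSR1 KO replicate 1. Psmb10 (ENSMUSG00000031897.9, chromosome 8 from 105935735 to 105938444) had 79.2, 121.9 and 77.0 CPM against 47.2, 47.6 and 57.6 CPM, a log2 fold change of 0.87 (adjusted p = 0.036 in the edgeR model). Psmb9 (ENSMUSG00000096727.2, chromosome 17 from 34181987 to 34187764) had 107.6, 109.7 and 64.9 CPM against 49.5, 44.9 and 60.0 CPM, with the same log2 fold change of 0.87 and an adjusted p of 0.049 in the edgeR model, the closest of the 8 to the threshold. Its level in MSR1 KO replicate 3 was above that in MSR1 WT replicate 3 by a factor of only 1.08, and with scaling to library size alone its adjusted p was 0.056. By contrast, Psmb5 (log2 fold change -0.04, adjusted p = 0.84), Psmb6 (0.04, adjusted p = 0.86) and Psmb7 (0.02, adjusted p = 0.93) had values near 0 in the same edgeR model, and none of the 3 had an unadjusted p under 0.05 or a call by DESeq2.

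For each pair of subunits, the transcripts were compared by the log2 ratio of the inducible to the constitutive count within a library. This ratio does not depend on scaling. Proteins and assembled proteasomes were not measured, so the exchange itself was not tested. Psmb8 over Psmb5 gave 2.06, 2.45 and 2.03 in MSR1 KO macrophages and 1.07, 1.09 and 1.495 in MSR1 WT macrophages, a difference of 0.96. In linear terms, the β5i transcript had 4.07 to 5.45 counts for each β5 count in MSR1 KO and 2.11 to 2.82 in MSR1 WT macrophages. These counts are not corrected for length, and Psmb8 has 3381 exon bases against 899 for Psmb5. Per kilobase of merged exons, Psmb8 had a mean of 56.8 CPM and Psmb5 of 46.9 CPM in MSR1 KO macrophages. In MSR1 WT macrophages the means were 30.1 CPM for Psmb8 and 48.2 CPM for Psmb5. Psmb10 over Psmb7 gave 0.47, 1.35 and 0.54 against -0.18, -0.08 and 0.16, a difference of 0.82. The groups did not overlap for these pairs. For Psmb9 over Psmb6 they did, with 0.61, 0.73 and -0.26 in MSR1 KO macrophages and -0.58, -0.54 and -0.20 in MSR1 WT macrophages, a difference of 0.80 in which MSR1 KO replicate 3 lay below MSR1 WT replicate 3. The exact two-sided permutation p was 0.1 for Psmb8 over Psmb5 and for Psmb10 over Psmb7 (0.15 adjusted over 3 pairs) and 0.2 for Psmb9 over Psmb6 (0.2 adjusted), and 0.1 is the smallest p that 3 against 3 libraries allow. This test therefore could not place any of these ratios under 0.05.

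**Figure D2:**
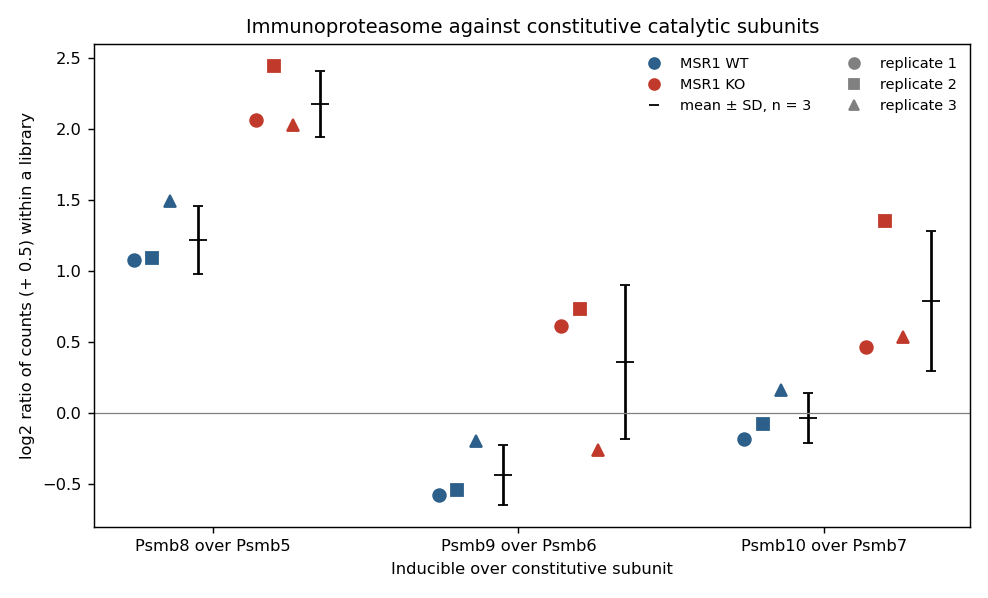
Log2 ratio of inducible to constitutive catalytic subunit counts (0.5 added to each count) in each of the 6 libraries for the 3 pairs of subunits, with black marks for the group means and their SD (n = 3). The MSR1 KO and MSR1 WT points are apart for Psmb8 over Psmb5 and Psmb10 over Psmb7, and they overlap for Psmb9 over Psmb6, where MSR1 KO replicate 3 is at -0.26.

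Psmb9 and Tap1 lie back to back. Their RefSeq starts, at 34187330 on the minus strand and 34187556 on the plus strand of chromosome 17, have 225 bases between them, so they are transcribed away from a common stretch. Beyond it, Tap1, Psmb8 and Tap2 follow each other on the plus strand. In the common stretch a CRE core was found (capitals), here as the 30 bases at chr17:34187457-34187486 on the plus strand. The window of Psmb8 held a gamma-activated site (TTCNNNGAA on either strand, in capitals), an element of interferon-inducible promoters, in the 30 bases at chr17:34198087-34198116 on the plus strand. Both stretches lie before the RefSeq starts and over exons annotated by GENCODE.
Tap1 and Psmb9: gcccagagacaggTGACGacagagggtcct
Psmb8: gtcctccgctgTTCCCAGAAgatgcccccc

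The gamma-activated site was found in Psmb8 alone among the 8 genes with a window, and in 8.3% of all windows. Despite the common stretch, Tap1 and Psmb9 did not run in parallel. In MSR1 KO replicate 3, Tap1 (221 CPM) was still above every MSR1 WT library by a factor of 1.43, whereas Psmb9 (64.9 CPM) was near the highest MSR1 WT value of 60.0 CPM. The genes of this cluster also overlap. The strand setting of the counting was not given in the sources used here, and without it reads of opposite strands cannot be told apart. In GENCODE, 3.87% of the Tap1 exon bases and 5.79% of those of Psmb9 lie over each other. For Tap2 the share over Gm15821 and Gm20496 was 18.5%, for Psmb8 that over Gm20496 was 14.7%, and for Tapbp that over Gm19412 was 24.9%, with a further 4.11% over Zbtb22 on the same strand. None of these 4 neighbours was called, although the 3 antisense genes had log2 fold changes of 0.67 (Gm19412), 0.76 (Gm15821) and 1.11 (Gm20496), and the most abundant of the antisense genes had 368 counts in a library, against 3283 or more for each of the 3 members they overlap.

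Nlrc5 (ENSMUSG00000074151.13, chromosome 8 from 94434356 to 94527272), the class I transactivator, showed the highest fold change of the 10 and also the widest spread. It had 7345, 11424 and 5365 counts in MSR1 KO macrophages and 3143, 3216 and 3848 counts in MSR1 WT macrophages. As levels these were 204.5, 287 and 115 CPM against 76.2, 67.8 and 93.2 CPM, with means of 202 ± 85.8 and 79.1 ± 12.9 CPM (SD, n = 3). The MSR1 KO libraries differed among themselves by a factor of 2.49 and still did not overlap the controls. The fold change was 2.56 (log2 fold change 1.36, SE 0.289, quasi-likelihood test of edgeR, adjusted p = 0.039), and its log2 value was 1.02 without MSR1 KO replicate 2 and 1.64 without MSR1 KO replicate 3. Nlrc5 and Psmb10 lie on the chromosome of the targeted gene, where Msr1 spans 39581685 to 39642673. Of the 8 genes for the DNA-binding partners of NLRC5, none was called in either direction by edgeR's quasi-likelihood test, 1 had an unadjusted p under 0.05 and 1 was called by DESeq2. Their median log2 fold change was 0.03. Rfx5, a subunit of the RFX complex, had the largest value (log2 fold change 0.76, adjusted p = 0.13 in the edgeR model) with overlapping groups, and Nfya, a subunit of NF-Y, the lowest at -0.30 (adjusted p = 0.33).

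The genes of interferon signalling that act before the class I genes rose in part, with several transcription factors and no receptor chain called by edgeR. Of 15 listed, 13 were tested, and 4 were called higher by edgeR and 7 by DESeq2. None was called lower by either, with 1 lower at an unadjusted p under 0.05. Stat2 had 276.5, 297.5 and 225 CPM in MSR1 KO macrophages and 97.0, 86.6 and 149 CPM in MSR1 WT macrophages, and MSR1 KO replicate 3 and MSR1 WT replicate 3 were again the nearest libraries. Stat2 (log2 fold change 1.27, adjusted p = 0.019) and Irf9 (0.48, adjusted p = 0.035), parts of the factor that carries the type I interferon signal, rose in the edgeR quasi-likelihood test. So did Irf2 (0.50, adjusted p = 0.032 by edgeR) and Socs1, a feedback inhibitor of the pathway (1.36, adjusted p = 0.045 by edgeR). Irf2 also lies on the chromosome of Msr1, from 46739732 to 46847458, nearer to it than Nlrc5 or Psmb10. Whether this position bears on its level was not tested. Irf1, which binds class I promoters, had a log2 fold change of 1.02 that missed the threshold (adjusted p = 0.073 in the edgeR model). Its lowest MSR1 KO value of 88.3 CPM was barely above the highest MSR1 WT value of 87.5 CPM. The 4 interferon receptor chains had log2 fold changes from -0.09 (Ifnar1) to 0.24 (Ifnar2, adjusted p = 0.072 by edgeR). Jak1 was at -0.14 and Jak2 at 0.33, and edgeR called none of these genes. Ifnar2 and Jak2 had an unadjusted p under 0.05 in that test (0.0048 and 0.0069), as did Jak1 in the lower direction (0.044). The ligands were hardly seen. Ifng had 0 counts in every MSR1 KO library and 4, 0 and 0 in MSR1 WT macrophages, and Ifnb1 had 8, 6 and 0 against 0, 0 and 4, where a count of 0 allows up to 3 counts. Neither was tested, and a difference between the genotypes was not detectable at this depth.

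The non-classical heavy chains, which also pair with β2-microglobulin and mostly show a narrow range of peptides or lipids, were higher for the most part. Of 17 listed, 13 were tested, 11 had a log2 fold change above 0, 6 rose and none was called lower, with a median log2 fold change of 0.77. The highest of the 6 was H2-Q6, with 219, 215 and 257 CPM in MSR1 KO macrophages against 66.0, 53.3 and 138 CPM (log2 fold change 1.42, quasi-likelihood test of edgeR, adjusted p = 0.043). H2-T24 (1.26), H2-T23, which encodes Qa-1, the ligand of an inhibitory NK receptor (1.21), H2-T22 (1.09), H2-Q4 (0.95) and H2-M3, which presents N-formylated peptides (0.45), were the others, with adjusted p between 0.016 and 0.047 in the edgeR model. H2-Q7, a near copy of H2-Q6, had a log2 fold change of 1.176 and missed the threshold (adjusted p = 0.057 by edgeR), as did H2-T10 (0.77, adjusted p = 0.12) and Cd1d1, which presents lipids (0.43, adjusted p = 0.21). MSR1 WT replicate 3 was the highest control for each of these H2-Q and H2-T genes. H2-M2 pointed the other way with 2, 4 and 0 counts against 12, 21 and 16 (log2 fold change -2.83). It missed the threshold (adjusted p = 0.12 by edgeR) but met the study's own definition in the lower direction. Mr1, which presents vitamin metabolites, had a log2 fold change of -0.09. Only H2-M3, of the 13 genes of this list with a promoter window, held TGACG and ATTGG at the 20-base spacing of the classical chains.

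Outside the catalytic subunits, edgeR called none of the listed proteasome genes except those of the interferon-inducible cap. The PA28 activator is built from the products of Psme1 and Psme2 and is known to favour the release of class I peptides. Psme1 had 134, 174 and 140 CPM in MSR1 KO macrophages and 82.3, 78.3 and 91.7 CPM in MSR1 WT macrophages (log2 fold change 0.83, quasi-likelihood test of edgeR, adjusted p = 0.014). Psme2 rose too (0.65, adjusted p = 0.030 by edgeR). Psme3, whose product forms a separate nuclear activator, had a log2 fold change of 0.04 (edgeR, adjusted p = 0.82) with overlapping groups. The log2 ratio of Psme1 to Psme3 counts was 0.60, 0.86 and 0.58 in MSR1 KO macrophages and -0.16, -0.22 and 0.09 in MSR1 WT macrophages (exact two-sided permutation p = 0.1, chosen after the values had been seen). Pomp, the assembly factor that immunoproteasomes also need, had a log2 fold change of 0.40 that missed the threshold (adjusted p = 0.056 by edgeR). DESeq2 called 3 of these 4 genes of the cap and assembly higher. Of the 11 other subunits of the 20S core, none was called by edgeR, while 5 had an unadjusted p under 0.05, all in the higher direction, and 1 was called by DESeq2. Their median log2 fold change was 0.18, and the largest was that of Psma5 (0.37, adjusted p = 0.072 by edgeR). Of the 17 subunits of the 19S regulator, none was called by either tool and 1 had an unadjusted p under 0.05, with log2 fold changes from -0.14 (Psmd6) to 0.22 (Psmd4) and a median of 0.02.

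The class II pathway, which presents peptides from outside the cell to CD4 T cells, gave no call at an adjusted p under 0.05 in edgeR for its 7 listed genes, where 2 had an unadjusted p under 0.05 and 1 was called by DESeq2. All 7 log2 fold changes were above 0, with a median of 0.41. H2-DMa, which loads class II molecules, had 0.84 (adjusted p = 0.080 by edgeR). The spread between libraries was wide for this pathway. Ciita, the class II counterpart of Nlrc5, had 409, 1021 and 370 counts in MSR1 KO macrophages and 404, 357 and 539 counts in MSR1 WT macrophages, so its log2 fold change of 0.57 (adjusted p = 0.52 by edgeR) rested on MSR1 KO replicate 2. Over all 9 lists of related genes, 81 of 87 genes were tested and 13 rose by edgeR, where 2.25% of all tested genes were called higher. None was called lower by edgeR or by DESeq2, with 3 lower at an unadjusted p under 0.05. The number that rose was 0 when MSR1 WT replicate 1 was left out, 2 when MSR1 WT replicate 2 was and 14 when MSR1 WT replicate 3 was. Leaving out the MSR1 KO libraries in turn gave 1, 4 and 8.

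**Figure D3:**
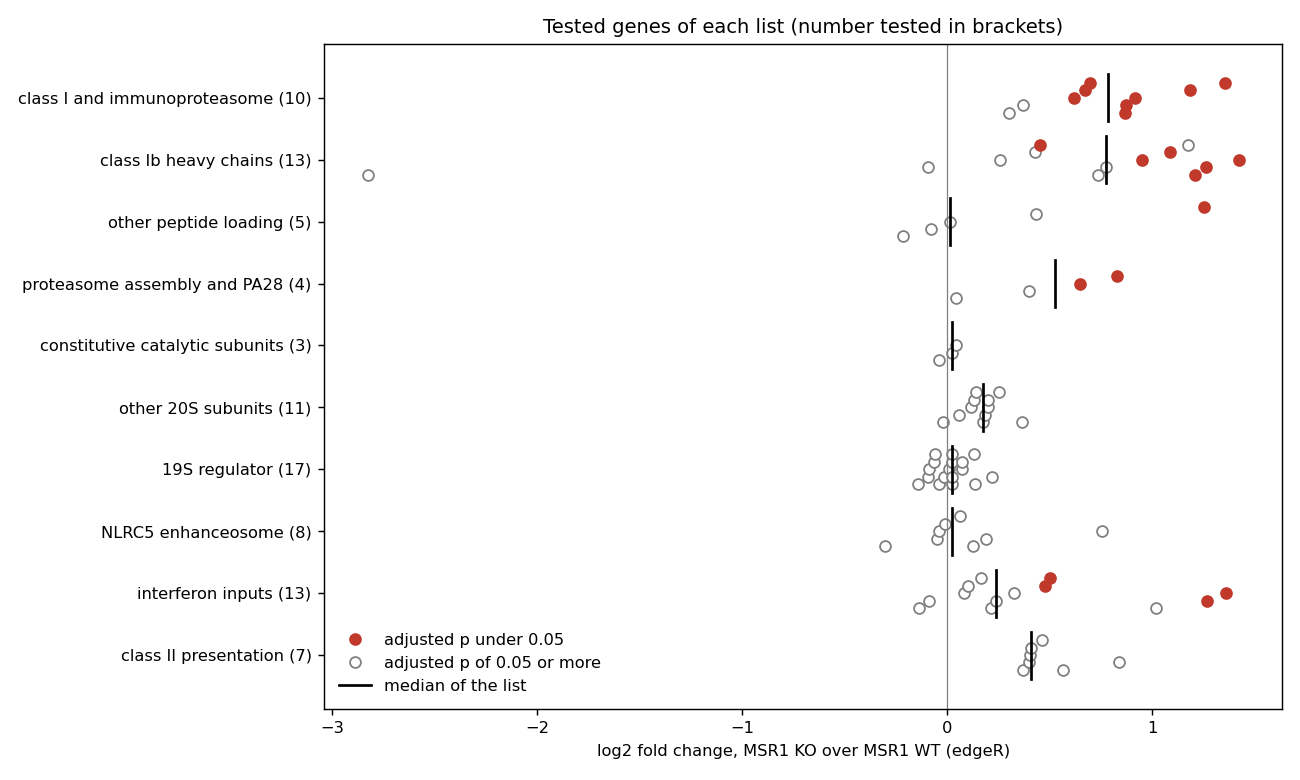
Log2 fold change (MSR1 KO over MSR1 WT, from the edgeR fit) of every tested gene in the 10 class I members and the 9 related lists. Filled points had an adjusted p under 0.05 and open points did not, and the vertical black lines give each list's median, 0.78 for the members, 0.77 for the non-classical heavy chains, 0.18 for the other 20S subunits and 0.02 for the 19S regulator.

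The libraries of a genotype were not alike for these genes. Each gene's log2 CPM was centred on its mean over the 6 libraries, and the 10 centred values were averaged. This gave 0.34, 0.64 and 0.18 for the MSR1 KO libraries and -0.45, -0.52 and -0.18 for the MSR1 WT libraries. MSR1 KO replicate 2 was the highest of its group for 8 genes, the exceptions being the heavy chains H2-K1 and H2-D1, which were highest in replicate 3. MSR1 KO replicate 3 was the lowest of its group for 7 genes. In the MSR1 WT group, replicate 3 was the highest for 9 genes and replicate 2 the lowest for 7. For 6 of the 10 genes the gap between the groups was the distance between MSR1 KO replicate 3 and MSR1 WT replicate 3. As a ratio of the lowest MSR1 KO to the highest MSR1 WT library, the gap was narrowest for H2-D1 (1.065, where MSR1 KO replicate 2 was the lowest) and Psmb9 (1.08).

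**Figure D4:**
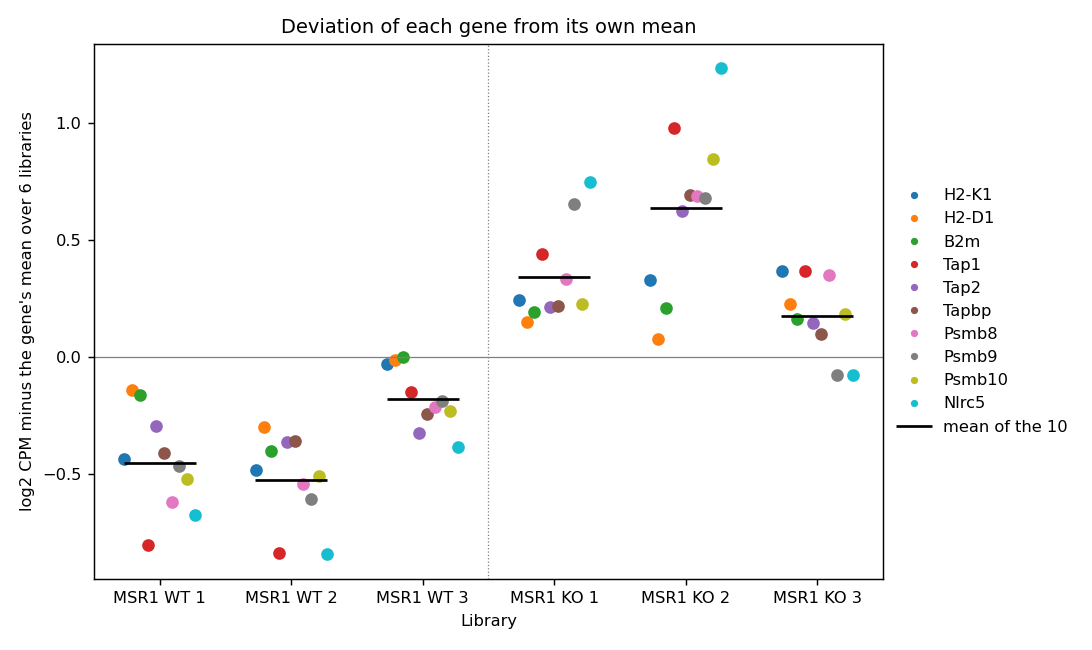
Log2 CPM of each of the 10 genes minus that gene's mean over the 6 libraries, by library; points are genes, set side by side for clarity, and the black bars are the means of the 10 genes. The means run from -0.52 (MSR1 WT replicate 2) to 0.64 (MSR1 KO replicate 2), and MSR1 KO replicate 3 and MSR1 WT replicate 3 are the nearest libraries of the 2 genotypes, at 0.18 and -0.18.

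The genes whose pattern over the 6 libraries was most like this mean profile were Tlr9, Samhd1, Themis2, Dtx3l and Parp11. They were picked by the smallest root mean square difference from the profile among genes outside the lists with a mean of at least 1 CPM, so their likeness and their differences between the genotypes are a description only. The difference was 0.0316 for Tlr9, a receptor for unmethylated DNA, and 0.0485 for Samhd1, a nucleotide phosphohydrolase that restricts viruses. It was 0.0517 for Themis2, 0.0584 for Dtx3l, a ubiquitin ligase, and 0.0741 for Parp11. The log2 fold changes of the 5 genes lay between 0.71 and 0.79. Tlr9 had 9871, 13075 and 11043 counts in MSR1 KO macrophages and 6577, 6737 and 7806 counts in MSR1 WT macrophages, with MSR1 KO replicate 2 and MSR1 WT replicate 3 the highest of their groups.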

How the data were processed

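mRNA-seq libraries were sequenced on an Illumina HiSeq instrument. The authors deposited raw read counts per gene and library, together with size-factor-scaled values and their own fold changes and p-values, which were not used here. The labels list fastp 0.17.1, HISAT2 2.1.0, DESeq2 1.18.1 and R 3.4.3, whereas the study's methods name TopHat and FPKM. The counting program, strand setting and genome build were not given in the sources used here. Of 52550 identifiers, 52403 were in GENCODE M21 (GRCm38), from which positions and exon lengths were taken, and 49909 of these had the same start and end. All 37 mitochondrial genes were listed at 0 counts. Spreadsheet software had turned 27 symbols into dates (26 restored), and 89 symbols were shared by several identifiers. No value column lacked a sample.

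Total counts per library ranged from 36143518 to 47417448. Limits from a count of 0 (3 counts) cover counting error only. Replicates differed by more than sampling noise (chi-square per degree of freedom 25.7 to 50.8). In edgeR 4.0.16 (R 4.3.3), filterByExpr chose the genes, TMM set the scaling and the quasi-likelihood functions glmQLFit and glmQLFTest gave the p-values, with Benjamini-Hochberg adjustment over 16402 genes. A standard error is the absolute log2 difference divided by the root of its F statistic. CPM values are TMM-normalised. Log2 ratios within a library used counts plus 0.5 and exact permutation tests (SciPy 1.17.1). Promoter windows were searched for fixed letters on both strands. The edgeR script was tested on simulated data.

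The members and the lists of related genes, written from general knowledge, were chosen with earlier results of these data known. 1 gene of the interferon list is not reported here. Named genes were the members, the constitutive catalytic subunits, the called genes of each list and up to 5 more with the largest change, Msr1, and the 5 genes nearest in profile. H2-DMa and Ciita, Ifng and Ifnb1, the overlapping neighbours and Cd3e were named for their role or their values. Alternatives were DESeq2 1.42.0, its size factors in edgeR, library size alone, other filters, leaving out each library, a block for the replicate number and 5 counts added in the ratios.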

Additional observations from a re-analysis of the deposited data

How the results depend on the processing

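Under the 12 alternatives all 10 log2 fold changes stayed above 0, with a median between 0.61 and 0.90, and no result changed direction. Of the 10 genes, DESeq2 called 10 (with 720 of all genes higher and 848 lower, against 369 and 436 in edgeR), edgeR with DESeq2's size factors 8, the filter of at least 10 counts 8 and library size alone 7. With no filter beyond a total count above 0 the number fell to 4, where 25014 genes were tested. With each library left out in turn it was between 0 and 6. The number of related genes called higher was 22 by DESeq2 and between 0 and 14 with each library left out, against 13. The ratios of inducible to constitutive subunits moved by less than the spread between replicates under every alternative run.

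With the replicate number as a block, edgeR called 0 of the 10 genes (adjusted p between 0.051 and 0.139). All 10 unadjusted p were under 0.05, a count with no background over all genes beside it. Of the related genes 2 were called, and the calls over all genes fell to 59 higher and 78 lower. Same-numbered libraries did not deviate together (correlations of -0.026, 0.019 and -0.0048), and not every library correlated best with its own number. Whether same-numbered libraries were prepared together was not given in the sources used here, and correlations near 0 cannot decide it. The loss of calls with the block therefore stands beside the main result.

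With 3 libraries a genotype, the exact permutation test of ratios within a library could not go under 0.1, and the ligands Ifng and Ifnb1 were too rare to compare. The causes of the changes above were not tested, except that leaving out a library leaves fewer samples and dropping the filter tests more genes.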
